A study of Mus musculus with 2 samples.

Results

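Sterol and fatty acid synthesis genes encode the enzymes that build cholesterol and fatty acids from acetyl-CoA, with the regulators that set their level. The set held 37 genes: 16 of the sterol arm, 18 of the fatty acid arm and 3 regulators (Insig1, Srebf1 and Srebf2). The members were taken by gene name from the non-control probes of the scanner files, where they had 56 of 39417 probes and made up 37 of 31093 gene names. All 56 probes were well above background on both arrays, so every member was measured and none was lost to the filter on dim signals.

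The study compared dorsal skin of newborn mice at P0 on a C57BL/6J strain background. The wild type (Sdr9c7+/+) group was 1 array, and the Sdr9c7-/- knockout group was 1 array. Each array received RNA pooled in equal amounts from 5 animals, as 200 ng of total RNA labelled with Cy3. The labels do not say which part of Sdr9c7 was removed or whether the animals were littermates. With 1 array for each genotype, no difference below has a replicate check or a test. Genotype cannot be told apart from the pool, the labelling or the hybridisation, and the values describe these 2 arrays.

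Cholesterol synthesis runs from HMG-CoA through mevalonate and farnesyl diphosphate to squalene, lanosterol and cholesterol. Fatty acid synthesis starts from cytosolic acetyl-CoA and malonyl-CoA and yields palmitate, which is then elongated, desaturated and built into glycerolipids. SREBP-2, the product of Srebf2, is best known for driving the sterol genes, and SREBP-1, the product of Srebf1, for driving the fatty acid genes. Insig1 encodes an anchor that holds the SREBP escort protein in the endoplasmic reticulum when sterols are plentiful. In skin, cholesterol and long chain fatty acids are, with ceramides, the lipids of the stratum corneum barrier, while fat cells and sebaceous glands carry out fatty acid synthesis for storage and secretion.

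Signals are given relative to the 75th percentile of each array, so that 1 equals it, and a difference is log2 of knockout over wild type. A gene with several probes has the mean of their log2 values. Levels of different genes come from different probes and are not compared with each other. A difference is called past 1.5-fold (0.58 on the log2 scale). The technical yardstick is the SD among probes that share a gene, 0.25 when pooled over 5162 genes. Repeated spots of the same probe had a smaller median SD of 0.06 over 320 probes. Neither covers the spread between animals.

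Sdr9c7 itself, the check of the labels, was 6.78-fold lower on the knockout array (relative signal 0.324 (wild type) and 0.0479 (knockout)). Whether its probe lies in the deleted part is not known here. Of all probes, 74.9% (wild type) and 76.8% (knockout) were well above background, and saturation was recorded for 0 spots. The design text calls the tissue epidermis and the sample labels call it skin. Markers of skeletal muscle (13 of 13), fibroblasts (7 of 7) and adipocytes (15 of 15) were measured on both arrays, beside those of basal (6 of 6) and suprabasal keratinocytes (7 of 7), so RNA of cells outside the epidermis was present.

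The probes of the members at both ends of each arm's range are shown. Each is a 60-base oligo, printed from base 1 to base 30 as the scanner files list it, in lower case, with positions of the whole oligo on mm9. No annotation of that build was used here, so they were not placed in exons or UTRs.
Elovl6 (chr3:129341248-129341307, plus strand): cctaggccctaaacccatattcagagggaa
Acly, first probe (chr11:100337674-100337733, minus strand): gccacctcagtctcttctctgtgttatcta
Acly, second probe (chr11:100365518-100365577, minus strand): tctgagtcccgagctgatgaagtggcacct
Fads3, first probe (chr19:10132641-10132700, plus strand): taaaatgacacggtgagcatagcatgtttt
Fads3, second probe (chr19:10134543-10134602, plus strand): catggggaatgtgctctttccctccaaatc
Elovl5 (chr9:77832205-77832264, plus strand): ctcaatacaaaaattataacatttgatagt
Sqle (chr15:59162688-59162747, plus strand): tgatttcagtatttggggtgactcattggg
Idi1 (chr13:8891524-8891583, plus strand): ctaatttcttgctaactctgaacagttgat
Lss (chr10:76015992-76016051, plus strand): cgcttaaagttcttggactagcttcagtga
Nsdhl, first probe (chrX:70203793-70203852, plus strand): cttcttcatcactgttcaacagtaagatga
Nsdhl, second probe (chrX:70202803-70202862, plus strand): tacaccaattcgagtggcattggctggaac

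The arms lay on opposite sides of the array as a whole. The sterol arm had a median difference of 0.09, with 13 of 16 genes above 0, and a narrow range from -0.05 (Nsdhl) to 0.29 (Sqle). The fatty acid arm had a median of -0.17, with 13 of 18 genes below 0, and a wide range from -0.42 (Fads3) to 0.68 (Elovl6). All 22740 measured genes had a median of -0.04, and 43.1% of them were above 0. The medians of the arms differed by 0.26. Of the 18 fatty acid genes, 12 lay below the lowest sterol gene and 2 above the highest. Of all measured genes, 47.06% lay below the lowest (Nsdhl) and 90.05% below the highest (Sqle). The lower bound is uncertain, because the probes of Nsdhl disagreed (0.20 and -0.31). Lss, the next lowest sterol gene, also lay at -0.05.

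Only Elovl6 passed the 1.5-fold threshold, where 2.36% of all measured genes were higher by as much. No member was lower by 1.5-fold, where 6.06% of all measured genes were, and no member reached 2-fold in either direction. Beyond the SD between probes, 4 members were higher (1 sterol, 3 fatty acid), against 12.4% of all genes. On the lower side there were 7 members (6 fatty acid and Insig1), or 0 of 16 sterol and 6 of 18 fatty acid genes, against 20.9% of all genes. The sterol arm was therefore tightly grouped with small differences. The fatty acid arm held members on both sides at this limit.

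**Figure D1:**
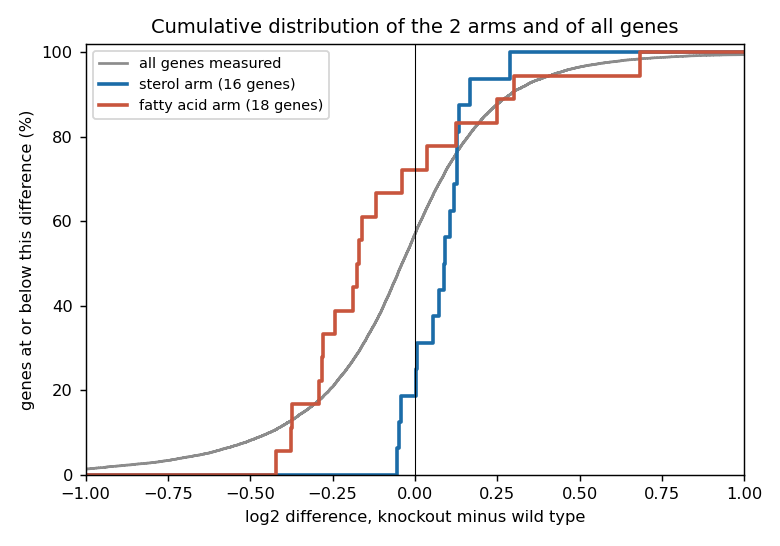
Cumulative share of genes (vertical axis, %) at or below each log2 difference, knockout minus wild type (horizontal axis), for the 16 sterol genes, the 18 fatty acid genes and all 22740 measured genes. The sterol curve is steep and lies to the right of 0 for 13 of 16 genes, while 13 of 18 fatty acid genes lie to the left, with Elovl6 alone at the far right (0.68).

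The first sterol steps, from HMG-CoA to farnesyl diphosphate, had 6 of 6 genes above 0, against 43.1% of all genes. Their median was 0.12, although Hmgcs1 was so close to 0 that it lay at -0.02 under 1 other setting. Hmgcs1, the HMG-CoA synthase, had a relative signal of 0.696 (wild type) and 0.698 (knockout) and was level (0.00). Its 2 probes gave -0.08 and 0.09, the former of them dim (0.0327 in the wild type). Mvk, mevalonate kinase, read 4.66 and 5.01 (0.11), both of its probes being above 0. Pmvk, the kinase that adds the next phosphate, read 5.45 and 5.79 (0.09). Its 2 probes gave 0.07 and 0.10. Mvd, the decarboxylase that makes isopentenyl diphosphate, read 0.891 and 0.977 (0.13). Idi1, which isomerises it, was the highest of these at 4.38 and 4.92 (0.17), and Fdps, farnesyl diphosphate synthase, read 10.5 and 11.5 (0.13). Each of these 6 differences was within the SD between probes. The scanner files place the Fdps probe on chromosome 10 and both Hmgcs1 probes on an unplaced part of chromosome 13. Whether such probes also bind processed copies of these transcripts was not tested.

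From squalene onward, 7 of 10 genes were above 0, against 43.1% of all genes, with a median of 0.06. Sqle, squalene epoxidase and a rate-controlling step of the pathway, read 7.53 (wild type) and 9.21 (knockout), 1.22-fold higher (0.29). It was the only sterol gene beyond the SD between probes. Fdft1, squalene synthase, was level at 0.15 on both arrays (0.01). Its probes read 0.0162 (dim) and 1.39 in the wild type and gave -0.06 and 0.08. They are listed at distant places and on opposite strands of chromosome 14. Lss, which closes the ring to lanosterol, was at 0.599 and 0.580 (-0.05), and Cyp51, the lanosterol demethylase, at 0.452 and 0.469 (0.05). Tm7sf2, a sterol reductase, read 1.05 and 1.12 (0.09), with probes at 0.02 and 0.17. Msmo1, the methyl sterol oxidase, read 9.0 and 9.47 (0.07). Apart from Sqle, these values lay between -0.05 and 0.09.

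Of the remaining sterol enzymes, Ebp, the sterol isomerase, read 10.6 and 11.5 (0.13), and Sc5d, the sterol desaturase that follows it, 2.26 and 2.45 (0.12). Dhcr7, the reductase of the final step, was at 0.750 and 0.728 (-0.04). Nsdhl, the sterol dehydrogenase whose loss causes a skin disorder in humans, was the lowest of the arm at 0.228 and 0.220 (-0.05). Its mean hides a disagreement. The first of the probes printed above read 0.124 and 0.143 (0.20) and the second 0.421 and 0.339 (-0.31), a gap of 0.52. It was the only member whose probes differed by over 0.5, and it has no settled direction.

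**Figure D2:**
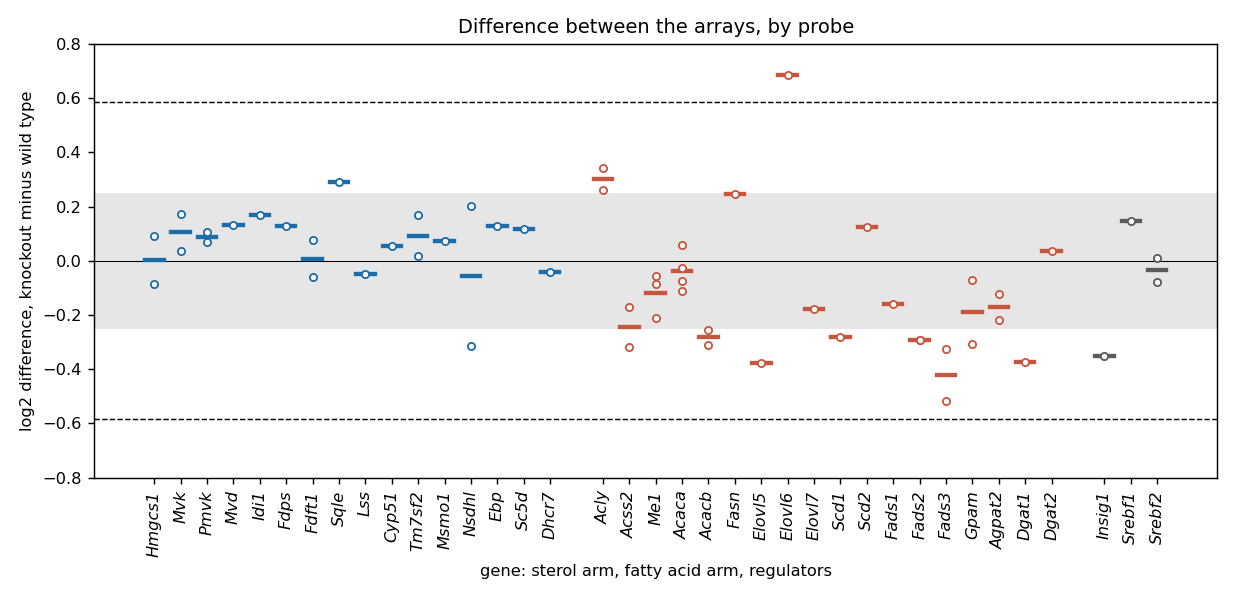
Log2 difference, knockout minus wild type (vertical axis), for each of the 37 genes (horizontal axis: sterol arm in blue, fatty acid arm in red, regulators in grey). Open circles are single probes, bars the gene value, the shaded band the SD between probes (0.25 to either side) and dashed lines 1.5-fold. The bars of the sterol genes other than Sqle sit inside the band, and Elovl6 is the only bar past a dashed line.

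The fatty acid arm was split within its steps. Supply, chain synthesis, elongation, desaturation and glycerolipid assembly each had 1 gene above 0, where 43.1% of all measured genes were above 0. Among the supply enzymes, Acly, ATP citrate lyase, which makes cytosolic acetyl-CoA, read 0.669 (wild type) and 0.824 (knockout), 1.23-fold higher (0.30). Its 2 probes, one bright (10.5 and 12.5) and one dim (0.0428 and 0.0542), gave 0.26 and 0.34. Acss2, which makes acetyl-CoA from acetate, was on the other side at 0.371 and 0.314 (-0.24), with probes at -0.17 and -0.32. Me1, malic enzyme and a source of NADPH, read 3.06 and 2.82 (-0.12), all 3 of its probes being below 0. Both routes to acetyl-CoA thus differed in sign, each with its probes on the same side.

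In chain synthesis, Fasn, the fatty acid synthase, read 0.259 and 0.308, 1.19-fold higher (0.25), at the edge of the SD between probes. Acaca, the acetyl-CoA carboxylase that supplies it with malonyl-CoA, was level at 0.535 and 0.521 (-0.04). Its 4 probes ran from -0.11 to 0.06, although the scanner files place 2 of them on chromosome 11 and 2 on chromosome 12. A probe from each chromosome begins with the same bases, offset by a single base (-0.03 and -0.07), so these readings are not independent. Acacb, the carboxylase at the mitochondrial surface that restrains fatty acid oxidation, read 0.200 and 0.164, 1.22-fold lower (-0.28), with probes at -0.26 and -0.31.

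The elongases held both the largest positive and one of the largest negative values. Elovl6, which extends palmitate to stearate, had a relative signal of 3.03 (wild type) and 4.87 (knockout), 1.61-fold higher (0.68), and 98.5% of all measured genes lay below it. The pixels of its single probe had a coefficient of variation of 0.175 (wild type) and 0.136 (knockout). The 42 measured spots around it had a median of -0.01 and an SD of 0.30, against an SD of 0.32 around a typical spot. Elovl5, which extends polyunsaturated fatty acids, read 2.47 and 1.91, 1.30-fold lower (-0.38). Elovl7, which extends saturated long chains, was at 9.60 and 8.50 (-0.18). All 3 elongases rest on 1 probe each.

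The desaturases were lower except for Scd2, and their median was -0.28, where 43.1% of all measured genes were above 0. Scd1 and Scd2 both introduce the first double bond into stearate and lie beside each other on chromosome 19. Scd1 read 3.22 and 2.65, 1.21-fold lower (-0.28), and Scd2 read 24.5 and 26.7 (0.13). The Fads cluster, also on chromosome 19, encodes the front-end desaturases of polyunsaturated fatty acids and was below 0 in all 3 genes. Fads1 was at 0.591 and 0.528 (-0.16), within the SD between probes. Fads2 was at 0.0643 and 0.0525, 1.22-fold lower (-0.29), with both probes at -0.29. Fads3, a family member that acts on sphingoid bases, was the lowest of all members at 0.719 and 0.537, 1.34-fold lower (-0.42), its probes at -0.52 and -0.32. The 45 measured spots around the lower of these probes themselves had a median of -0.15, the furthest from 0 of any member's surroundings. One Fads2 probe (chr19:10137760-10137819, mm9) was listed close to the Fads3 probes on the opposite strand, and the other (chr19:10163229-10163288) further away.

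Glycerolipid assembly was lower in 3 of 4 genes, with a median of -0.18, where 43.1% of all genes were above 0. Gpam, the mitochondrial acyltransferase of the first step, was at 0.0812 and 0.0713 (-0.19), with probes at -0.31 and -0.07. Agpat2, which adds the second acyl chain, was at 1.72 and 1.53 (-0.17), with probes at -0.12 and -0.22. Dgat1 and Dgat2 both close the triglyceride and did not go together. Dgat1 read 0.693 and 0.535, 1.30-fold lower (-0.37), on 1 probe that the files list as unmapped. Dgat2, whose loss in mice impairs the skin barrier, was level at 29.1 and 29.9 (0.04).

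Across the arm, the genes above 0 were Acly, Fasn, Elovl6, Scd2 and Dgat2. The first 3 of these, the route from citrate to stearate, were its 3 highest. This grouping was made after the values were seen. Acaca, a step of the same route, was not among them.

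**Figure D3:**
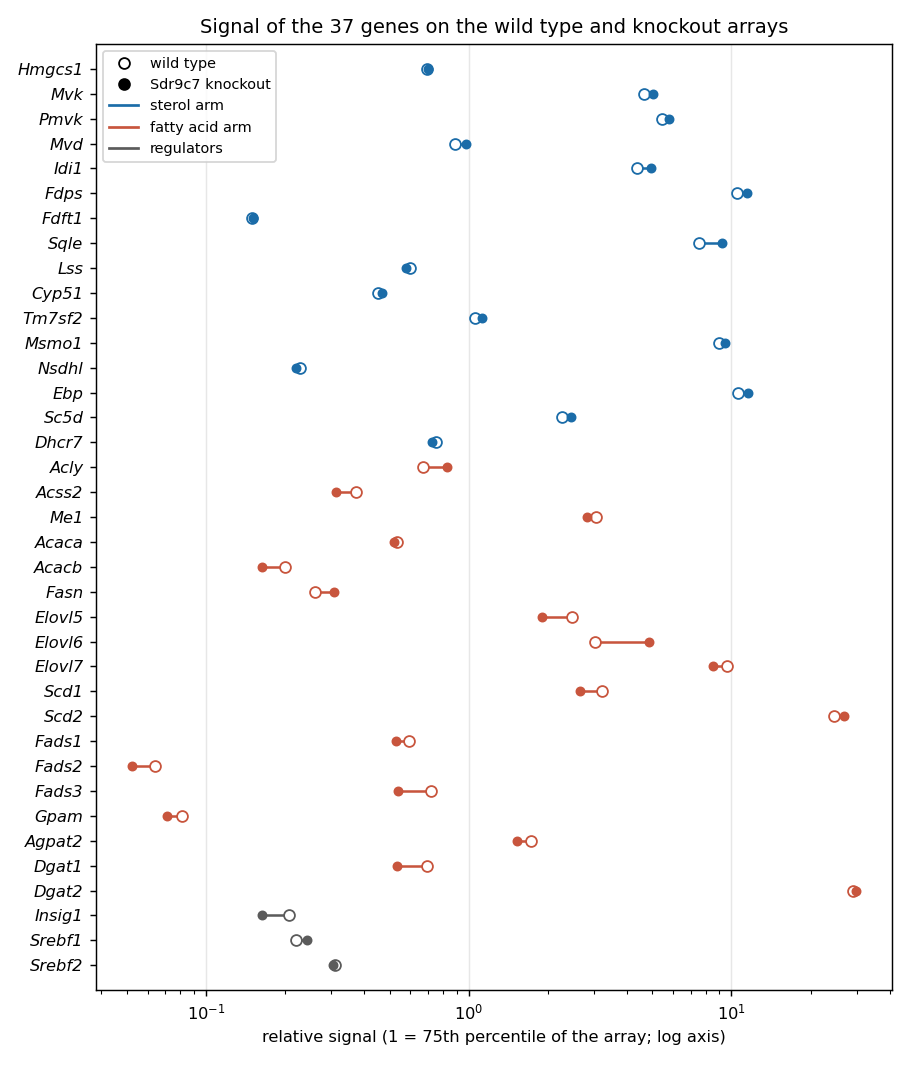
Relative signal of each gene (horizontal log axis, 1 being the 75th percentile of the array) on the wild type array (open circles) and the knockout array (filled circles), joined by a line. The joined circles nearly coincide for most sterol genes, while Elovl6 (3.03 and 4.87) has the longest line to the right and Fads3 (0.719 and 0.537) the longest to the left.

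The regulators did not follow either arm as a group. Insig1, itself a target of SREBP and a brake on it, read 0.208 (wild type) and 0.163 (knockout), 1.27-fold lower (-0.35). It was the only regulator beyond the SD between probes. Srebf1 read 0.219 and 0.243 (0.15) on 1 probe, and its isoforms were not told apart. Srebf2 was level at 0.311 and 0.304 (-0.04), with probes at 0.01 and -0.08. So Insig1 lay below all 16 sterol genes.

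Other genes of both pathways, from lists written down beside the members, showed how far these values extended. Of 12 related sterol genes, 11 were measured, with a median of 0.01, 6 above 0 and 5 below, against 43.1% of all genes above 0. None was beyond the SD between probes, against 12.4% of all genes on the higher side and 20.9% on the lower. Their ends were Cyb5r3, which passes electrons to the sterol desaturases, at -0.24 and Hsd17b7, a ketosteroid reductase of the pathway, at -0.21, and Erg28, a scaffold of sterol demethylation, at 0.21 and Ggps1, which uses farnesyl diphosphate for geranylgeranylation, at 0.15. The median of these 11 was thus nearer 0 than that of the 16 sterol genes (0.09), and above that of all genes (-0.04).

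Genes of sterol sensing, uptake, transport and efflux were mostly lower, with a median of -0.19 over 20, of which 4 were above 0, against 43.1% of all genes, and 9 lower by more than the SD between probes, against 20.9%. Npc1, the lysosomal cholesterol exporter, was the lowest at 0.757 and 0.439, 1.72-fold lower (-0.79). Mylip, a ubiquitin ligase and target of the sterol sensor LXR, was at 0.521 and 0.393 (-0.41). Sult2b1, the cholesterol sulfotransferase of the epidermis, was among the 4 above 0, at 7.57 and 8.85 (0.23). The LXR targets Abca1 (-0.27) and Abcg1 (-0.34), both cholesterol exporters, and Nr1h3, LXR alpha itself (-0.29), were named after their values were seen. Other LXR genes were not lower: Nr1h2, LXR beta, was level (0.01), and the member Srebf1, also an LXR target, was at 0.15. None of the 20 reached 1.5-fold except Npc1.

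The 32 related fatty acid genes had a median of -0.04, equal to that of all genes, with 14 above 0 and 18 below. Lpin1, a phosphatidate phosphatase of muscle and fat, was the lowest at 0.0767 and 0.0334, 2.29-fold lower (-1.20). Thrsp, a lipogenic protein of fat and liver, was at 1.05 and 0.571, 1.84-fold lower (-0.88). At the other end were Agpat1 at 1.39 and 1.70 (0.29) and Elovl3, an elongase of sebaceous gland and brown fat, at 0.308 and 0.377 (0.29). With the related genes joined to both arms, the gap between the medians was 0.17 in place of 0.26.

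The lists of cell type markers differed in their medians and in the share of genes above 0, which was 43.1% over all measured genes. Summed signals, given for some lists, are weighted to the brightest probes. The sum of the fatty acid arm was 80.9 (wild type) and 82.7 (knockout), although its median was -0.17. Adipocyte markers were below 0 in 15 of 15 genes, with a median of -0.74 and a summed relative signal of 104 (wild type) and 68.3 (knockout). None was at 0. They ran from Cfd, adipsin, at -1.76 and Retn, resistin, at -1.17 to Cebpa at -0.08 and Pparg at -0.02, which are factors of fat cell formation. Skeletal muscle markers were below 0 in 13 of 13, with a median of -0.86 and summed signals of 327 and 197, from Pvalb at -2.26 and Actn3 at -1.52 to Tnnc2 and Myh3, both at -0.54. Members well known from fat or muscle, picked after their values were seen, lay on both sides: Scd1 (-0.28), Dgat1 (-0.37), Agpat2 (-0.17), Gpam (-0.19) and Acacb (-0.28) were below 0, and Acly (0.30), Fasn (0.25), Elovl6 (0.68) and Dgat2 (0.04) above. In whole skin, fewer cells of a type and less RNA per cell cannot be told apart. The part of these tissues in the fatty acid values was not tested.

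The epithelial markers were nearer 0. Basal keratinocyte markers had a median of 0.08, with 4 of 6 above 0, from Trp63 at -0.09 and Itgb4 at -0.02 to Krt5 at 0.14 and Col17a1 at 0.19, and summed signals of 94.8 and 101. Suprabasal markers had a median of -0.03 over 7, from Krt2 at -0.69 and Flg2 at -0.34 to Dsg1a at 0.11 and Ivl at 0.26. Sebocyte markers had a median of 0.04 over 10 (5 above 0, 5 below), from Mc5r at -0.50 and Mgst1 at -0.32 to Elovl3 and Dgat2l6, both at 0.29, with summed signals of 62.4 and 60.1. Of these markers, Elovl3 and Scd3 are themselves among the related fatty acid genes.

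**Figure D4:**
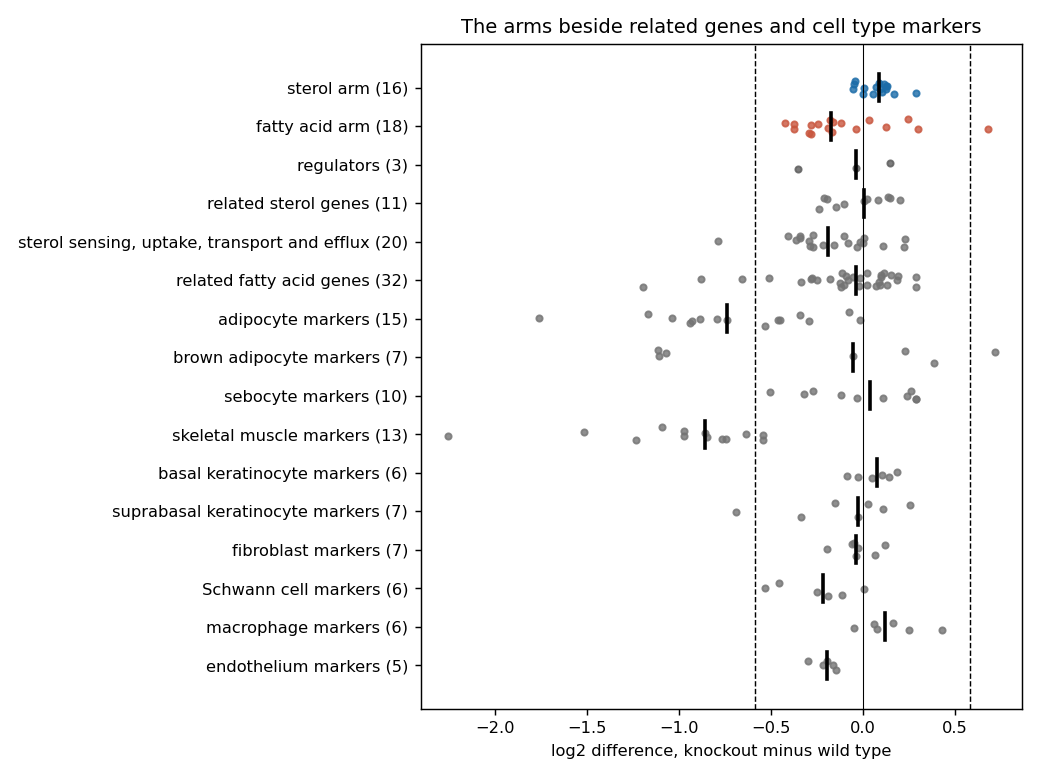
Log2 difference, knockout minus wild type (horizontal axis), of each measured gene (points) in the sterol arm, the fatty acid arm, the regulators, 3 lists of related genes and 10 lists of cell type markers, with list sizes in parentheses, medians as black bars and 1.5-fold as dashed lines. Points are spread vertically only for legibility, and the medians of the adipocyte (-0.74) and muscle (-0.86) markers lie far left of those of both arms.

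Fibroblast markers had a median of -0.04 over 7, from Col1a1 at -0.20 and Col1a2 at -0.06 to Lum at 0.07 and Pdgfra at 0.12. Schwann cell markers, of interest because myelin is rich in cholesterol, had a median of -0.22 over 6, with 5 below 0, among them Pmp22 at -0.46 and Mbp at -0.11, and Sox10 at 0.01. Endothelial markers had a median of -0.19 over 5, from Pecam1 at -0.30 and Cdh5 at -0.21 to Tie1 at -0.16 and Emcn at -0.14, and macrophage markers one of 0.12 over 6, from Csf1r at -0.05 and Cd68 at 0.06 to Adgre1 at 0.25 and Cd163 at 0.43. Brown adipocyte markers had a median of -0.05 over 7, from Cox8b and Ppargc1a, both at -1.11, to Ucp1 at 0.39 and Prdm16 at 0.72. Of these, Ucp1 (0.0349), Prdm16 (0.0453) and Ppargc1a (0.0940) were dim in the wild type, and Cox8b (4.19) was not. The part of these lists in the values of either arm was not tested.

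A feature of the sterol genes that the arrays did not measure is their promoters, taken from RefSeq on GRCm38.p6 as 250 bases before to 50 after each start site. The table held 13 of 16 sterol genes, 13 of 18 fatty acid genes and 3 of 3 regulators. Not in it were Fdps, Fdft1, Sqle, Scd1, Scd2, Fads1, Dgat1 and Dgat2. Searched on both strands were CCAAT, the core of the site of NF-Y, which acts beside SREBP, GGGCGG, that of Sp1, CACGTG, the E-box, and TCACNCCAC, a form of the sterol regulatory element. No motif contains another, though matches can overlap in part, and a match is a description of letters, not of binding. CCAAT was in 13 of 13 sterol genes, 8 of 13 fatty acid genes and 3 of 3 regulators, against 41.1% of all 27025 genes in the table and 37.4% of its 32851 promoters. Among genes with 1 promoter in the table, CCAAT was in 11 of 11 sterol genes and 6 of 11 fatty acid genes. It occurred at least 2 times in 8 of 13 sterol genes and 3 of 13 fatty acid genes, against 13.3% of all genes. GGGCGG was in 12 of 13 sterol genes, 8 of 13 fatty acid genes and 3 of 3 regulators, against 38.2% of all genes (35.7% of promoters). Both together were in 12 of 13, 3 of 13 and 3 of 3, against 14.5% (12.8% of promoters).

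The other motifs were rarer. CACGTG was in 2 sterol genes, 1 fatty acid gene and Insig1, against 8.09% of all genes (7.15% of promoters). TCACNCCAC was in Hmgcs1 alone, against 1.44% of all genes (1.24% of promoters). Elovl6, the member past 1.5-fold, had a match to none of the 4 in the 250 bases before its start, which says only that these letters are not in that window.

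**Figure D5:**
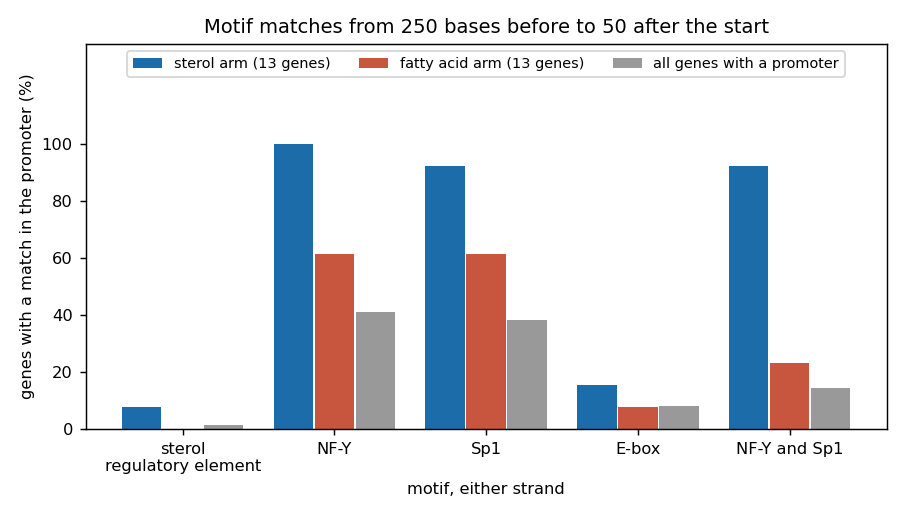
Share of genes (vertical axis, %) with a match to each motif on either strand in their RefSeq promoters, for 13 sterol genes, 13 fatty acid genes and all 27025 genes with a promoter. The NF-Y and Sp1 bars of the sterol genes stand at 100% and 92.3%, those of the fatty acid genes at 61.5% each.

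The CCAAT matches of the sterol genes are shown because each of the 13 genes had a match in a promoter. Of these genes, 11 had a single promoter in the table. For each gene the match nearest before the start site is given in its 25-base window, GRCm38.p6, on the gene's strand, with CCAAT or its complement ATTGG in capitals. The complement was the form in 9 of 13. In 12 of 13 the first base lay within 100 bases of the start site, from -14 (Mvk and Idi1) to -62 (Lss), and in Pmvk it lay at -136.
Hmgcs1 (chr13:119690296-119690320, plus strand): cccgcctctcATTGGctgaaagcgg
Mvk (chr5:114444245-114444269, plus strand): cagctctctgATTGGcctcaggaag
Pmvk (chr3:89454395-89454419, plus strand): ctcaggttggCCAATtcacagcatc
Mvd (chr8:122443435-122443459, minus strand): ggccagcgggCCAATcatatggcag
Idi1 (chr13:8885582-8885606, plus strand): ccaaggtgccATTGGctggcgaccg
Lss (chr10:76531533-76531557, plus strand): tgatgctctgATTGGccgagctcgc
Cyp51 (chr5:4104712-4104736, minus strand): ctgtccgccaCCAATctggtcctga
Tm7sf2 (chr19:6067883-6067907, minus strand): cccagcgctgATTGGctactgtgct
Msmo1 (chr8:64733619-64733643, minus strand): gtggggcggaCCAATtacgacaggc
Nsdhl (chrX:72918491-72918515, plus strand): gactagcctcATTGGgcaaaatcat
Ebp (chrX:8193553-8193577, minus strand): ccctgtactgATTGGttcgtcagat
Sc5d (chr9:42264310-42264334, minus strand): ccggctgctgATTGGccggctgcct
Dhcr7 (chr7:143830155-143830179, plus strand): tccacttccgATTGGtcgtctgtga

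For Hmgcs1, the only member in the table with all of the sterol element, CCAAT and GGGCGG, the 250 bases before the start site are printed with every match in capitals. The sterol element TCACCCCAC begins at -137, ATTGG at -237, -176 and -45, and the Sp1 letters at -92 and -24. The same stretch of Elovl6 is given for comparison and has no capitals.
Hmgcs1 (chr13:119690101-119690350, plus strand): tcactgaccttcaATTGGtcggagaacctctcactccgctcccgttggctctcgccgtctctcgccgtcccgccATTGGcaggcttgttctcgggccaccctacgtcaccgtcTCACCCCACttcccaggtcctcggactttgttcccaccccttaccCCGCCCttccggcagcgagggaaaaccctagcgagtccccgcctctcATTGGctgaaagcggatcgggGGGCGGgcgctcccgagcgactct
Elovl6 (chr3:129532136-129532385, plus strand): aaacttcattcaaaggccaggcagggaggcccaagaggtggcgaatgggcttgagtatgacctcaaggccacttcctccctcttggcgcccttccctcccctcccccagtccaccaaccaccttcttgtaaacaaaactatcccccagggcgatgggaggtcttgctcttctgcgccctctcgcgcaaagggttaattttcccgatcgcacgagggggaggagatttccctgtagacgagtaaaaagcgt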

How the data were processed

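Both one-colour arrays lay on 1 slide. Per the file headers, the authors' scanner files were extracted with Agilent Feature Extraction 11.5.1.1 and give the intensity of 44397 spots per array, after subtraction of background and a correction for spatial trends. A ratio for every spot stands in the deposited series matrix. It equals the processed intensity over a constant of 1906 (wild type) or 2080 (knockout), is linear and uncentred, and has medians of 0.0855 and 0.0840. No source here names the step behind it.

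For the values reported, control spots and 192 outlier spots were removed, log2 processed intensities averaged over the spots of a probe, and each array scaled to its 75th percentile over 39417 probes. Gene values are means over probes that, on each array, were unsaturated and well above background (22740 genes). The number of arrays limits the precision. Members, lists and motifs were chosen with earlier results of these data known. All members are named, with the 2 lowest and 2 highest genes of each list, apart from a few that are not reported here. Others are marked as picked after their values were seen. The calculation was tested on simulated arrays, with planted changes larger than either arm's median and added noise smaller than the SD between probes. That test does not show how well shifts as small as the arm medians are recovered. Software was Python 3.11.15, R 4.3.3 and limma 3.58.1, the last for the alternatives by normexp (offset 50) and other normalizations.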

Additional observations from a re-analysis of the deposited data

How the results depend on the processing

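Under 11 other settings of scaling, background correction, filter, probe choice, outlier spots, slide areas and source of values, the sterol arm's median lay between 0.08 and 0.14. The fatty acid arm's lay between -0.17 and -0.13, and the gap between 0.24 and 0.26. Settings that shift a whole array by a constant, or filters that touch no member probe, could not change the gap. It was free to move only under normexp, other normalizations, a stricter filter on signal or the choice of the brightest probe. Elovl6 alone passed 1.5-fold in each of the 11 settings (0.67 to 0.73). With related genes joined to both arms the gap was 0.17. With glycerolipid genes left out it was 0.26, and with regulators joined 0.25. Of the 37 members, 32 kept their sign throughout, the others (Acaca, Dgat2, Dhcr7, Hmgcs1 and Srebf2) lying near 0. Nsdhl went to -0.31 with its brightest probe. No member probe lay in an area of the slide left out as disturbed (2.84% of spots). The median over all genes ran from -0.07 to 0.01. No paired analysis was possible because each genotype had 1 array. The dimmest member probe, of Fdft1, was at 0.0162 in the wild type, where the lowest signal taken as well above background was 0.00563.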
